A study of Homo sapiens with 2 samples.

Results

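IGF2BP3 LACE-seq peaks that lay in the space between genes were examined in OE-19, an established human cell line derived from adenocarcinoma at the esophagogastric junction. A peak was taken as far intergenic when its whole interval was more than 1000 bp from the span of every GENCODE 44 gene of any biotype, on chromosomes 1 to 22 and X of hg38. Replicate 1 held 418 such peaks among 21070 (1.98%), and replicate 2 held 352 among 20733 (1.70%). Of the remaining peaks, 20533 and 20273 overlapped a gene, and 119 and 108 overlapped none but lay within 1000 bp of one. The samples form a single group of 2 replicates, OE-19 cells immunoprecipitated for IGF2BP3, with no treatment or genetic change named in the labels. An input or IgG control was not analysed here, and the study calls its replicates biological, while the labels do not say whether they came from separate cultures. The lists hold peaks and no expression levels, so the cell line was not checked against marker genes.

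IGF2BP3 is an oncofetal RNA-binding protein with RRM and KH domains that binds mRNA, mostly in 3′ UTRs, and is described as a reader of N6-methyladenosine (m6A) that stabilizes its targets. In LACE-seq, RNA is crosslinked to protein by UV light and immunoprecipitated, and reverse transcription stops at the crosslinked residues, so that the ends of the cDNA mark where the protein sat. Intergenic DNA is mostly silent, but it holds tRNA genes and many inserted copies of cellular RNA and DNA. Retrocopies are reverse-transcribed mRNAs that lack introns and often end in a run of As, and nuclear mitochondrial segments are pieces of mitochondrial DNA in the chromosomes. A read from a copy and a read from its source can be hard to tell apart.

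The sequences beneath the peaks fell into a few kinds, and examples of each kind are printed here, all from hg38. The leading tRNA genes, as RefSeq places them, are shown in the sense of the tRNA with the anticodon in capitals. TRL-TAG3-1, a leucine tRNA, lies at chr16:22195711-22195792. TRY-GTA5-4, a tyrosine tRNA, lies at chr14:20663192-20663285. TRL-CAG2-2, another leucine tRNA, lies at chr16:57300480-57300562. TRR-CCG2-1, an arginine tRNA, lies at chr17:68019897-68019969. Each is on the minus strand.
TRL-TAG3-1: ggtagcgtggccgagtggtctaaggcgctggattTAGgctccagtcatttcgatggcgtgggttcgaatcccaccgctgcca
TRY-GTA5-4: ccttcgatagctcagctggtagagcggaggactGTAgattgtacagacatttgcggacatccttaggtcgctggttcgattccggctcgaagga
TRL-CAG2-2: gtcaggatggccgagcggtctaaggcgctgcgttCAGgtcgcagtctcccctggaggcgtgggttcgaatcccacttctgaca
TRR-CCG2-1: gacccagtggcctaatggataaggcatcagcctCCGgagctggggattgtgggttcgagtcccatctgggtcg

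The stretches that resemble the mitochondrial genome are given on the plus strand of the chromosome, with the bases that differ from mitochondrial DNA in capitals. The chr13 stretch, chr13:55971638-55971759, was identical to bases 5105 to 5226 of the mitochondrial genome, in MT-ND2, at 111 of 122 positions. On chr7, chr7:145997330-145997425 matched bases 1610 to 1705, mostly in the valine tRNA gene MT-TV, at 94 of 96 positions. On chr18, chr18:2842275-2842354 matched bases 14381 to 14460, in MT-ND6, at 79 of 80 positions.
chr13 stretch: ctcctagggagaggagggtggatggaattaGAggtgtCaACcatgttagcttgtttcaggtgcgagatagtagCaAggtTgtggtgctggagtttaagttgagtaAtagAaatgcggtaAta
chr7 stretch: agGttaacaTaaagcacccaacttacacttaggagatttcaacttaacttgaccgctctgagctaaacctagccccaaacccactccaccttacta
chr18 stretch: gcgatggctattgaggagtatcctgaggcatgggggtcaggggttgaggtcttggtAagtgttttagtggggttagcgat

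The stretches that resemble ribosomal RNA are shown in the same way, with differences from the ribosomal precursor gene RNA45SN2 (chr21:8205988-8219302) in capitals and positions counted from its first base. The first, chr5:175115034-175115154, was identical to positions 4915 to 5035, in 18S rRNA, at 110 of 121 positions. Both others matched 28S rRNA. The stretch chr5:71850915-71851005 matched positions 10459 to 10549 at 90 of 91 bases, and chr4:69430943-69431035 matched positions 9864 to 9956 at 92 of 93.
chr5 stretch in 18S: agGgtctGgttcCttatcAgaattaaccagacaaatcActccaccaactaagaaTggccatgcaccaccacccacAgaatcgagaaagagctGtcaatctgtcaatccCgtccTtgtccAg
chr5 stretch in 28S: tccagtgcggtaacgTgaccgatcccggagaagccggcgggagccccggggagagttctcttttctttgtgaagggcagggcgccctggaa
chr4 stretch in 28S: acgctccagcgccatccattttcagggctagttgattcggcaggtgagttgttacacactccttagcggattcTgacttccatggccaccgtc

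Copies of 3′ UTRs are represented by 30 bases at the place where the similarity to the mRNA stops, in the sense of the mRNA, with the run of As in capitals. The EIF4B copy ends at chr3:957557-957586, the YWHAZ copy at chr17:21281163-21281192, the UBE2K copy at chrX:84881640-84881669 and the RCC2 copy at chrX:99938201-99938230. All 4 read on the minus strand.
EIF4B copy: tataaagtttAAAAAAAAAtcaaattattg
YWHAZ copy: atgatgggggAAAAAAAAgagagaggctga
UBE2K copy: cccctgAAAAAAAAAAAAAAgtttgtcagt
RCC2 copy: ttgtctactgAAAAAAAAAgaaaattagaa

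Peaks without any such match are represented by the summit of replicate 1 with 50 bases on each side, on the plus strand, with the central 31 bases in capitals. These 31 bases occur once in the genome at each of the 3 sites, chr4:27730604-27730704, chr12:4243745-4243845 and chr6:75034162-75034262. The chr12 window repeats a short unit.
chr4 site: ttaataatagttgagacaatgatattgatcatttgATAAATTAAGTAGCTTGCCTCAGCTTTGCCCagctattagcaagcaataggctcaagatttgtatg
chr12 site: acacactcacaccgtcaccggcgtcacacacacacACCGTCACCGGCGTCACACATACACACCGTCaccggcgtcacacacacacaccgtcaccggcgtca
chr6 site: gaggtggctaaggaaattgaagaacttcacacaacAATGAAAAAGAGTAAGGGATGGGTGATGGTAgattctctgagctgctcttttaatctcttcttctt

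The far intergenic peaks were sparse. The space more than 1000 bp from genes covers 1086.67 Mb, or 37.3% of the sequence of these chromosomes, and held 0.385 peaks per Mb in replicate 1 and 0.324 in replicate 2, against 7.24 and 7.12 per Mb for all peaks over all sequence. Chromosome 22 had the highest density of far peaks, with 1.12 and 0.899 per Mb, and chromosome 13 the lowest mean, with 0.151 and 0.194, although chromosome 3, with 0.168, and chromosome 18, with 0.192, were lower in replicate 2. The peaks of both lists merged into 572 regions, of which 195 held peaks of both replicates, 222 of replicate 1 only and 155 of replicate 2 only. Most regions stood alone. Regions within 10 kb of another formed 39 clusters with 118 peaks.

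Fold enrichment, the ratio of signal over local background that the peak caller gave, was similar to that of peaks in genes, whereas the number of reads was lower. Median fold was 6.81 in replicate 1 (range, 3.03 to 18.9) and 6.92 in replicate 2 (3.49 to 17.3), with a mean of 6.87 ± 0.0792 (SD, n = 2). Peaks overlapping a gene had medians of 6.89 and 7.13. The pileup at the summit, the number of overlapping reads recovered from the fold and p-value of each peak, had a median of 12 and 11 reads in far peaks and of 23 and 22 reads in gene peaks. Median width was 298 bp in both lists, close to the narrowest peak of 293 and 294 bp, against 337 and 344 bp over genes. The median −log10 q was 8.55 and 8.72 in far peaks, against 11.96 and 12.5 over genes.

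A peak of the other replicate overlapped 196 of the 418 far peaks of replicate 1 (46.9%, 95% Wilson interval 42.2 to 51.7), compared with 60.1% of all peaks in that list. In replicate 2 this held for 197 of 352 far peaks (56.0%, 50.7 to 61.1), compared with 61.2% of all peaks. The mean share was 51.4% ± 6.42 (SD, n = 2). Gene peaks overlapped more often, by 13.6 percentage points in replicate 1 (Newcombe interval 8.72 to 18.3) and by 5.42 points in replicate 2 (0.278 to 10.7). When overlap was taken as summits within 50 bp, the mean share of far peaks was 31.9%, and the mean difference from gene peaks was 2.54 points in place of 9.49. Peaks within 1000 bp of a gene overlapped in 42.9% and 48.1% of cases, and their difference from far peaks had intervals that included 0 in both lists. These intervals cover counting error over peaks only, and peaks are not replicates. Reads were also not counted by molecule.

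At like pileup the difference was smaller in replicate 1 and differed in direction between ranges in replicate 2. Among peaks with at most 14 reads, 37.3% of far peaks and 39.7% of gene peaks of replicate 1 overlapped the other list, and 45.9% and 40.98% in replicate 2. With 15 to 36 reads, the shares were 57.6% and 59.9% in replicate 1, and 76% and 61.03% in replicate 2. With 37 reads or more, 20 of 25 and 14 of 19 far peaks overlapped, against 82.2% and 83.3% of gene peaks. Far peaks were below gene peaks in all 3 ranges of replicate 1 and in the highest range of replicate 2, and above them in the others.

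Every overlapping far peak had a far peak as its partner. The 196 pairs had summits a median of 21 bp apart, 122 pairs had summits within 50 bp, and in 97 pairs both ends were within 10 bp. Fold enrichment in the 2 lists had a Spearman rho of 0.537 over these pairs, which share the cell line and the peak caller. Paired peaks had a higher median fold, 8.03 and 7.72, than unpaired ones, 6.31 and 6.61, and a higher median pileup, 15 and 14 reads against 9 and 9.

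Far peaks lay closer to genes than the far space does on average. Their median distance to the nearest gene was 9818.5 bp in replicate 1 and 10545 bp in replicate 2, whereas a grid of 10809 windows, 1 every 100000 bp of far space and each about as wide as a far peak, had a median of 24100 bp. Within 5000 bp of a gene lay 32.1% and 28.7% of far peaks but 15.7% of the grid. Beyond 100000 bp lay 7.89% and 5.97% of far peaks and 16.9% of the grid. Where the nearest gene was protein-coding, the peak was on its downstream side in 56.7% of 120 cases (47.7 to 65.2) in replicate 1 and 50.98% of 102 (41.4 to 60.5) in replicate 2, beside 50.2% of the grid. Within 5000 bp of such a gene it was 23 of 39 (59.0%, 43.4 to 72.9) and 19 of 31 (61.3%, 43.8 to 76.3), beside 51.3% of the grid. Each interval was wide and included the share of the grid, so a preference for the 3′ side of genes was neither shown nor excluded. The share that overlapped the other replicate did not order with distance. From the nearest to the farthest of 4 ranges of distance it was 45.5%, 46.98%, 50.98% and 39.4% in replicate 1, and 61.4%, 53.4%, 52.5% and 61.9% in replicate 2.

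At the limit of the rule, the nearest members lay 1021 bp (replicate 2, chr17:19736305-19736660, fold 4.38), 1028 bp and 1032 bp from a gene. The latter are peaks of replicate 2 and 1 over the same tRNA gene, TRN-GTT2-3, with fold 7.96 and 8.20. Just outside the rule were peaks 982 bp from ANKMY1, 968 bp from SMIM15 and 959 bp from FLYWCH2, with folds of 5.04, 5.81 and 6.80.

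Each far peak was placed in 1 group by what lay under it, as the plot of group shares shows. A match anywhere in the peak counted, even where it left out the summit. Peaks over a tRNA gene numbered 24 (5.74%) in replicate 1 and 36 (10.2%) in replicate 2. Peaks that matched rRNA numbered 20 (4.78%) and 21 (5.97%), and those that matched mitochondrial DNA 14 (3.35%) and 16 (4.55%). Matches to a 3′ UTR at 90% identity or more over at least 100 nt numbered 73 (17.5%) and 41 (11.6%). Other parts of transcripts were matched by 34 (8.13%) and 28 (7.95%) peaks, and 31 (7.42%) and 32 (9.09%) peaks matched more than 10 genes. The remaining 222 (53.1%) and 178 (50.6%) had no match. In the grid of far windows, by contrast, 84.3% had no match, and tRNA, rRNA and mitochondrial sequence together were found in 2 of 10809 windows.

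**Figure D1:**
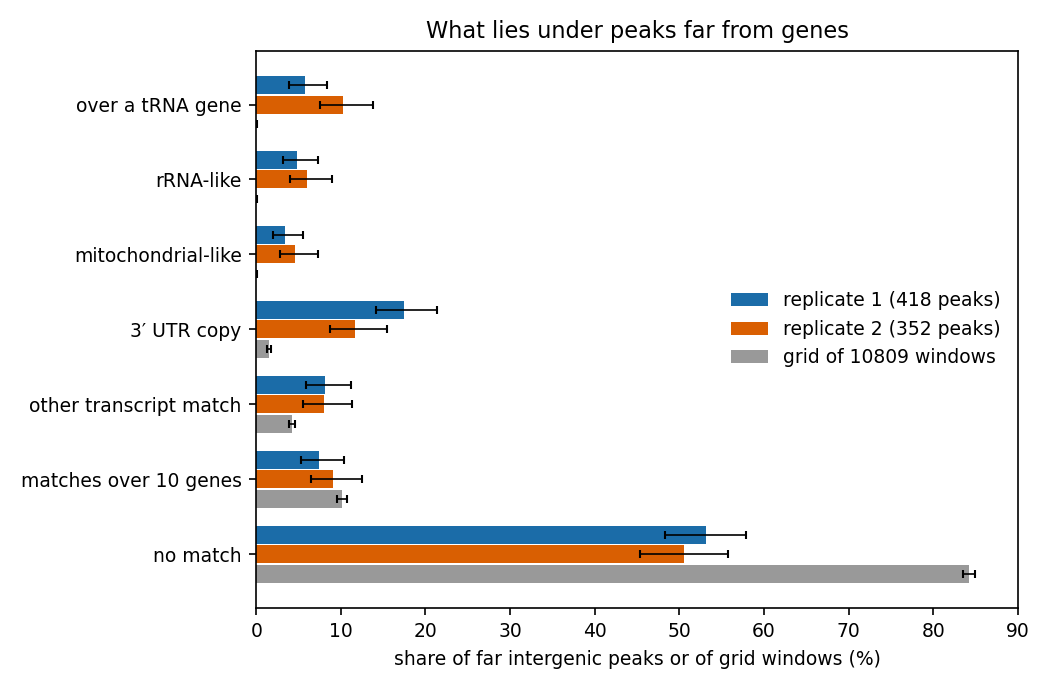
Share of far intergenic peaks of replicate 1 (blue, 418 peaks) and replicate 2 (orange, 352 peaks) and of 10809 grid windows of the far space (grey) in each sequence group, in percent, with 95% Wilson intervals. The first 4 groups are larger among peaks than in the grid, as are other transcript matches, 8.13% and 7.95% against 4.18%. Windows without a match are fewer among peaks, 53.1% and 50.6% against 84.3%.

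Genes and copies of structural RNA and of mitochondrial DNA lay under a larger share of far peaks than of gene peaks, though not under a larger number. The RefSeq tRNA genes under far peaks are not among the GENCODE genes that the distance rule counts. The tRNA, rRNA and mitochondrial groups together held 58 far peaks in replicate 1 (13.9%, 10.9 to 17.5) and 73 in replicate 2 (20.7%, 16.8 to 25.3), with a mean of 17.3% ± 4.85 (SD, n = 2). Among peaks overlapping a gene, the same kinds of sequence lay under 100 (0.487%) and 119 (0.587%). Peaks within 1000 bp of a gene resembled far peaks, at 12.6% and 20.4%. These groups also held many of the strongest far peaks, with 12 of the 30 largest folds in replicate 1 and 18 of the 30 largest in replicate 2.

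The groups differed in how often the other replicate had a peak at the same place, as drawn in the plot of overlap by group. In replicate 1, the tRNA, rRNA and mitochondrial groups overlapped in 51 of 58 cases (87.9%, 77.1 to 94.03) and the other far peaks in 145 of 360 (40.3%, 35.3 to 45.4). In replicate 2, the counts were 52 of 73 (71.2%, 59.99 to 80.3) and 145 of 279 (51.97%, 46.1 to 57.8). By group, mitochondrial matches overlapped in 92.9% and 81.2%, rRNA matches in 85.0% and 85.7%, tRNA genes in 87.5% and 58.3%, and 3′ UTR matches in 45.2% and 73.2%. Matches to more than 10 genes overlapped least, in 32.3% and 34.4%, and peaks without a match in 40.5% and 51.1%. The groups were drawn after the peaks had been seen, so these shares are given without a test.

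**Figure D2:**
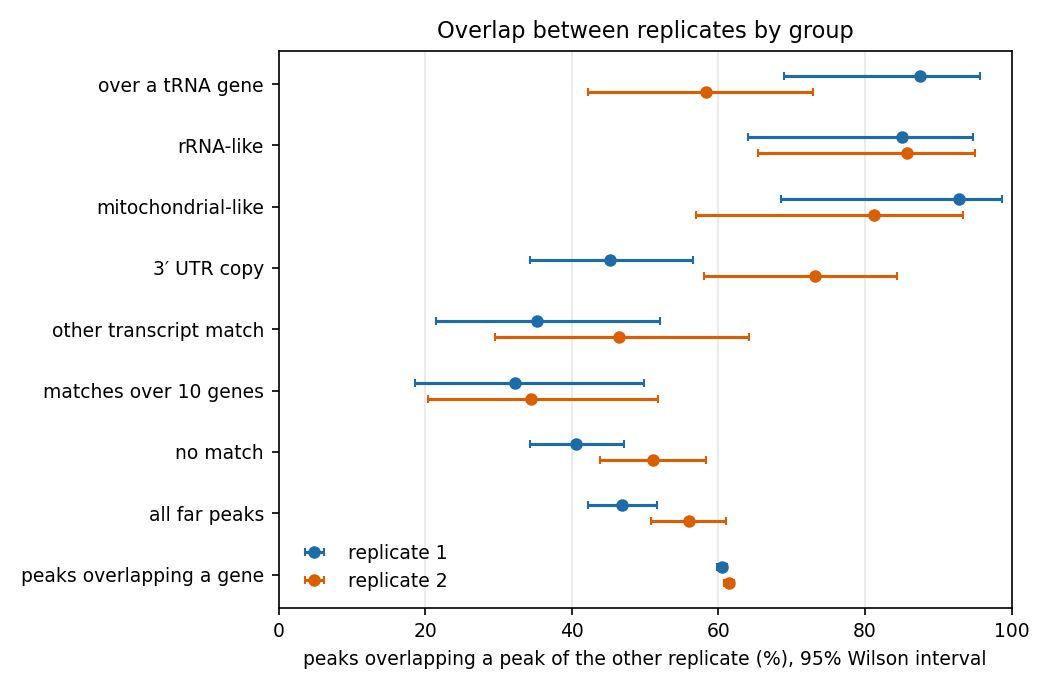
Percent of peaks that overlap a peak of the other replicate by at least 1 bp, for each group of far intergenic peaks, all far peaks and peaks overlapping a gene. Points are shares and bars 95% Wilson intervals, blue for replicate 1 and orange for replicate 2, and the rRNA and mitochondrial groups stand at 81.2% or more in both lists.

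The spread of fold enrichment was wide within every group. Median fold was 8.54 and 8.84 over tRNA genes, 7.45 and 7.31 over rRNA matches, 8.65 and 8.49 over mitochondrial matches, 7.80 and 7.25 over 3′ UTR matches, and 6.66 and 6.68 over peaks without a match. The highest folds of replicate 1 and 2, 18.9 and 17.3, belonged to overlapping peaks on chr13, both with a mitochondrial match. Pileup was highest over rRNA matches, with medians of 22.5 and 24 reads, and was 10 reads in both lists over peaks without a match.

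**Figure D3:**
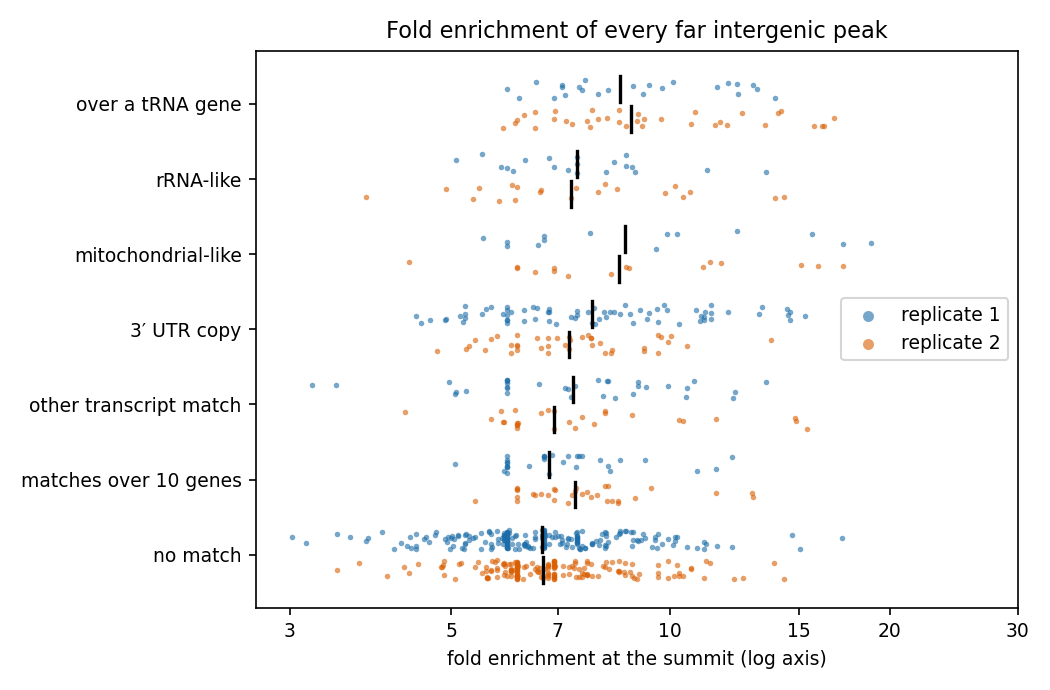
Fold enrichment at the summit (log axis) of every far intergenic peak by group, blue for replicate 1 and orange for replicate 2, 1 point a peak, with the vertical position inside a row carrying no meaning. Black bars are medians, which lie between 6.66 and 8.84, and the groups overlap over most of their range.

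Transfer RNA genes are short genes read by RNA polymerase III from promoters inside the gene, and many of them stand in clusters, above all on chromosome 6 near the histone genes. In all, 40 tRNA genes lay under far peaks, with 24 anticodons. Of these, 21 had a peak in both replicates, 3 in replicate 1 only and 16 in replicate 2 only, and 18 were on chromosome 6. The genes seen in replicate 2 only had folds of 5.89 to 10.7. RefSeq lists 197 tRNA genes in the far space, and 41 of them (20.8%, 15.7 to 27.0) had any peak, counting 1 under a peak that reached too close to a gene. For tRNA genes within 1000 bp of a GENCODE gene the share was 22.6%, and for those inside one it was 16.8%, and the intervals of all 3 shares overlapped.

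The strongest far tRNA peak was that over TRL-TAG3-1, with fold 13.9 and 28 reads in replicate 1 and fold 16.8 and 37 reads in replicate 2. TRY-GTA5-4 had folds of 13.0 and 16.2, and TRL-CAG2-2 had 12.3 and 16.3. TRR-CCG2-1 had folds of 13.1 and 13.5, the closest values of these 4. For the glutamine tRNA TRQ-CTG6-1 the folds were 9.35 and 15.7, for the glutamate tRNA TRE-TTC2-1 they were 11.6 and 14.2, and for the glutamine tRNA TRQ-CTG2-1 they were 12.02 and 14.1. Fold was higher in replicate 2 for each of these 7 genes. The leucine CAA anticodon had the most genes, 4 of the 5 in the far space, of which 2 had peaks in both lists. At the low end, TRA-TGC4-1 and TRD-GTC2-10 were seen in replicate 2 only, under a single peak of 8 reads and fold 5.89 that touched both genes.

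**Figure D4:**
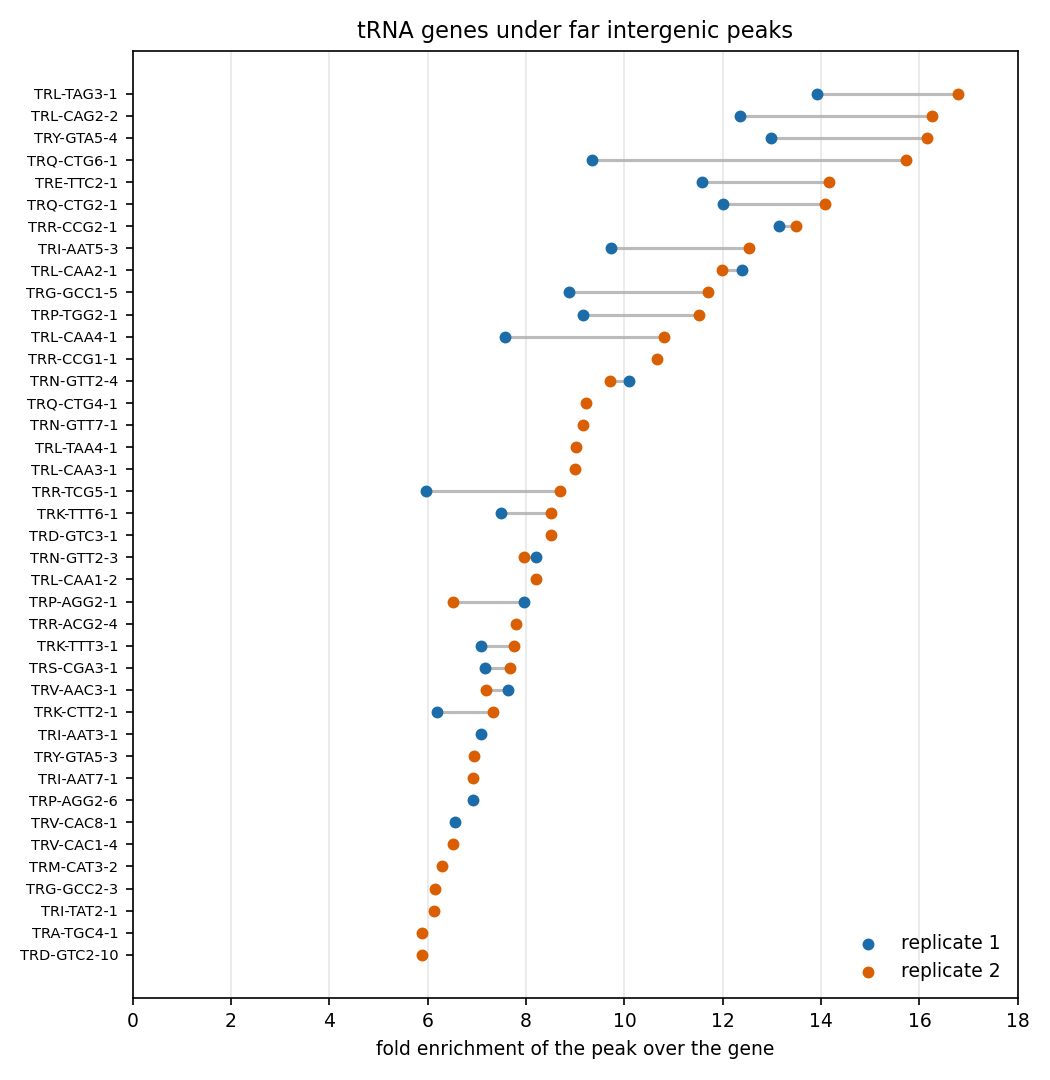
Fold enrichment of the far intergenic peak over each of 40 tRNA genes, ordered by the larger of the 2 values, with replicate 1 in blue and replicate 2 in orange and a grey line joining genes seen in both. The genes with the highest folds, from TRL-TAG3-1 downward, have a peak in both replicates, and 16 of the 19 genes seen once are seen in replicate 2.

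The middles of the peaks were displaced from the middles of the tRNA genes in a constant direction. The middle of the peak lay on the 5′ side of the middle of the gene at all 23 genes with a known strand in replicate 1 and at all 36 in replicate 2. This held on either strand, at 3 of 3 plus-strand and 20 of 20 minus-strand genes in replicate 1, and at 7 of 7 and 29 of 29 in replicate 2. Counted from the middle of the gene, with negative values on its 5′ side, the median offset was -109 nt in replicate 1 (-161 to -86) and -123.5 nt in replicate 2 (-171 to -91). Even so, the peak covered the whole gene in 17 of 24 cases and 24 of 37. Peaks over tRNA genes were wider than the genes, with median widths of 296.5 and 302 bp, near the narrowest peak of each list. The size of the offset therefore depends on the width of the peak. It does not place the bound bases upstream of the gene. The 31 bases at the summit occurred more than once in the genome at 8.33% of tRNA peaks in both lists, fewer than among all far peaks, although 19 of the 40 tRNA genes have the same sequence as another RefSeq tRNA gene.

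Ribosomal RNA makes up most of the RNA of a cell. The study's methods describe setting aside reads that matched its precursor. The submitters' notes name other tools, so it is not known whether this was done for these lists. Far peaks lay over 23 regions that resemble the precursor. Of the rRNA-matching peaks, 9 and 11 matched 18S rRNA, 10 and 9 matched 28S rRNA and 1 in each list the spacers. Identity had a median of 91.2% and 91.4% (range, 80.3 to 98.9%). Chromosomes 14, 20 and 22 held 9 and 13 of these peaks. The non-coding transcripts ENSG00000280614 and ENSG00000225840, themselves similar to rRNA, were matched at 5 and 3 of the regions. The peak at chr20:29298530-29300278 matched 18S rRNA over 1650 nt and had fold 11.2 and 85 reads in replicate 1, and fold 9.83 and 73 reads in replicate 2. Elsewhere the matches were shorter. At chr5:175114808-175115378 the folds were 13.5 and 14.3, with 24 and 26 reads, 119294 bp from the nearest gene. At the peak that holds the chr4 stretch shown with the sequences, fold was 7.24 in replicate 1 and 13.9 in replicate 2. Both of its summits lay outside that stretch.

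The far peak with the largest fold in each list overlapped a mitochondrial segment. At chr13:55971638-55972008, fold was 18.9 with 40 reads in replicate 1 and 17.3 with 33 reads in replicate 2. At chr18:2842275-2842594, both lists gave the same start and end, with folds of 17.3 and 15.1 and 39 and 27 reads. At chr7:145997083-145997425, fold was 15.6 and 16.0, with 27 and 30 reads. Each of these 3 peaks was present in both lists and was among the 10 with the largest fold in both. The mitochondrial match covered only part of each peak. On chr18 it ended at 2842354, and the summits lay outside it, at 2842445 and 2842434. On chr13 it ended at 55971759, with the summit of replicate 1 inside it, at 55971733, and that of replicate 2 outside, at 55971824. In all, mitochondrial segments lay under 17 regions. The mitochondrial rRNA genes MT-RNR1 and MT-RNR2, which give the RNA of the mitochondrial ribosome, accounted for 10 of the 14 matches of replicate 1 and for 11 of the 16 of replicate 2. Identity ran from 81.4 to 98.8%, over 64 to 612 nt, and peaks over MT-RNR1 and MT-RNR2 copies were weaker than the leading 3, such as fold 10.2 and 11.1 at chr22:12135506-12135806. The peak farthest from any gene, at chr4:160044611-160044903 and 266782 bp from LINC02233, matched MT-ND5 over 64 nt and had fold 5.96 in replicate 1 and 6.92 in replicate 2. Among regions with peaks in both lists, the next farthest were the chr22 copy, at 225147 bp, and a region at chr4:66672014-66672306, at 224955 bp and with the same folds, 5.96 and 6.92. Its replicate 1 peak matched LRRC74B at 90.2% over 102 nt, and its replicate 2 peak had no match. A copy of MT-RNR1 at chr14:83588411-83588892, 161491 bp from a gene, had folds of 9.91 and 8.78, and an 18S copy at chr22:11630795-11631091, at 151151 bp, had 6.09 and 7.42.

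Copies of 3′ UTRs were the largest matched group. Among far peaks that matched at most 10 genes, the best match lay in a 3′ UTR in 73 of 107 (68.2%, 58.9 to 76.3) in replicate 1 and 41 of 69 (59.4%, 47.6 to 70.2) in replicate 2, against 158 of 610 grid windows (25.9%, 22.6 to 29.5). Coding sequence was the best match in 3 and 1 peaks and 5′ UTR in 1 and 2. The 3′ UTR matches came from 62 genes in replicate 1 and 38 in replicate 2, and had a median identity of 94.8% and 93.9%.

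Many of these matches carried features of a retrocopy. The similarity extended beyond the peak over a median of 1317 nt and 1702 nt, compared with 301.5 nt for 3′ UTR matches of the grid. It reached within 50 nt of the end of the transcript in 44 of 73 (60.3%) and 25 of 41 (61.0%), and there was a run of at least 8 As at its end in 40 (54.8%) and 21 (51.2%). Both features occurred together in 29 (39.7%, 29.3 to 51.2) and 17 (41.5%, 27.8 to 56.6), against 5 of 156 grid windows (3.21%, 1.38 to 7.28). The similarity ran across an exon junction without the intron in 16 (21.9%) and 6 (14.6%), against 1 grid window. The grid had no condition on a peak, so the difference between peaks and grid describes where peaks lay among copies.

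The matched genes mostly held peaks of their own. A peak lay on the matched gene in 64 of 73 cases (87.7%, 78.2 to 93.4) and 37 of 41 (90.2%, 77.5 to 96.1), whereas 41.2% and 42.2% of all protein-coding genes held a peak. A peak on the very stretch of the gene that was copied was seen less often, in 28 (38.4%) and 14 (34.1%). The 31 bases at the summit were present in the matched transcript for 22 peaks (30.1%) and 12 peaks (29.3%), so most summit sequences were not found in the matched transcript. The expression of these genes was not measured here, and its part in the result was not tested.

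By gene, YWHAZ, which encodes a phosphoserine-binding adaptor protein, had copies under far peaks at 3 places. On chr17 the peak at 21281423 to 21281933 had fold 14.5 and 42 reads in replicate 1 but fold 5.57 and 18 reads in replicate 2, and on chr10 folds were 6.81 and 6.05. The third YWHAZ copy, on chr6, had a peak of fold 8.88 in replicate 1 only. EIF4B, a translation initiation factor that assists the helicase of the cap complex, had a copy on chr3 with folds of 14.6 and 7.79 and a copy on chr6 with folds of 5.14 and 6.80. The 3′ UTR stretch of EIF4B itself held no peak at either stretch, though the gene did. At the chr3 copy of EIF4B, the summit sequence was in the transcript and occurred 4 and 3 times in the genome. At the chr17 copy of YWHAZ it was in the transcript and occurred 2 times in both lists. At the chr6 copies of both genes and the chr10 copy of YWHAZ it occurred 1 time and was not in the transcript. Which copy the reads came from was not tested.

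RCC2, a regulator of the mitotic spindle and of small GTPases, had a copy at chrX:99939483-99939923 with folds of 13.3 and 13.7. By the lower of its ranks in both lists it led the group. In both lists, the summit sequence of this chrX copy was in the RCC2 transcript and occurred 2 times in the genome. Which copy the reads came from was not tested. A second RCC2 copy, at chr6:56430504-56430804, had a peak of fold 7.98 in replicate 1 only. Its summit sequence was not in the transcript and occurred 1 time. PPP4R3B, a regulatory subunit of a serine/threonine phosphatase, had a copy on chr15 (44942427 to 44942860) with 97.9% identity and folds of 15.3 and 10.0. LASP1, an actin-binding scaffold protein, had 2 neighbouring far regions in 1 copy on chr3, with folds of 13.4 and 8.30 in the first and 4.91 and 8.02 in the second. For RCC2, PPP4R3B, the first LASP1 region and YWHAZ on chr17, the matching stretch of the gene held a peak too.

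Outside the 3′ UTRs, long non-coding RNAs recurred. FAM27C matched far peaks at 6 regions on chromosomes 9, 12 and 17 with an identity of at least 91.8%. The strongest of them, at chr9:65503631-65504142, had folds of 12.3 and 15.4. FAM27C itself held no peak in either replicate, and the far peak at chr9:67634428-67634863 had fold 13.5 and 59 reads in replicate 1 but fold 5.91 and 15 reads in replicate 2. In both lists this peak matched FAM27C at 100% identity. Its summit sequence was present in the FAM27C transcript and occurred 4 times in the genome. The summit sequence of the chr17 peak occurred 1 time and was not in the transcript. Which copy the reads came from was not tested, so the lack of a peak on FAM27C does not settle it. UCA1, a long non-coding RNA known from bladder cancer, was the best match at 4 regions at 90.6 to 93.5% identity, and folds at the chr19 region 15070494 to 15070805 were 9.03 and 8.87. A second chr19 region, 21129935 to 21130242, had folds of 10.5 and 7.56. The chr6 and chr8 regions had peaks in replicate 1 only, each of fold 5.96 and 7 reads. Some of these peaks matched other genes too, up to 5 genes on chr6, and repeats were not checked. UCA1 itself held a peak.

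In orientation, the sequences under far peaks were unbalanced. The files give peaks no strand, but a 3′ UTR copy or a tRNA gene has one. The sense of the RNA was on the minus strand of the chromosome for 62 of 73 3′ UTR copies (84.9%, 75 to 91.4) in replicate 1 and 36 of 41 (87.8%, 74.5 to 94.7) in replicate 2. Among the 158 such copies of the grid it was on the minus strand in 69 (43.7%, 36.2 to 51.5). Of the copies that ran to the transcript end with a run of As, 27 of 29 and 17 of 17 were on the minus strand. The tRNA genes showed the same, with 20 of 23 (87.0%, 67.9 to 95.5) and 29 of 36 (80.6%, 65.0 to 90.2) on the minus strand, whereas 58 of 139 far tRNA genes without a peak were (41.7%, 33.9 to 50.04).

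The imbalance was not particular to far peaks. Of peaks that overlapped genes of 1 strand only, 69.9% in replicate 1 and 68.1% in replicate 2 lay over a minus-strand gene, although 49.3% of the 62062 GENCODE genes on these chromosomes are on that strand. The rRNA matches read on the minus strand in 12 of 20 cases (38.7 to 78.1%) and 76.2% (54.9 to 89.4), and the mitochondrial matches in 57.1% (32.6 to 78.6) and 8 of 16 cases (28 to 72%). Only the interval for rRNA in replicate 2 left out an even split. Neighbouring rRNA peaks are not independent, and the cluster at chr20:30486314-30489045 gave 1 peak in replicate 1 and 4 in replicate 2. These intervals therefore do not decide whether rRNA matches are unbalanced. For mitochondrial matches, the strand is that of the alignment to the reference mitochondrial sequence, not the sense of each mitochondrial gene. The gene nearest to a far peak was on the minus strand in 49.04% and 51.99%. The cause of the imbalance was not tested.

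**Figure D5:**
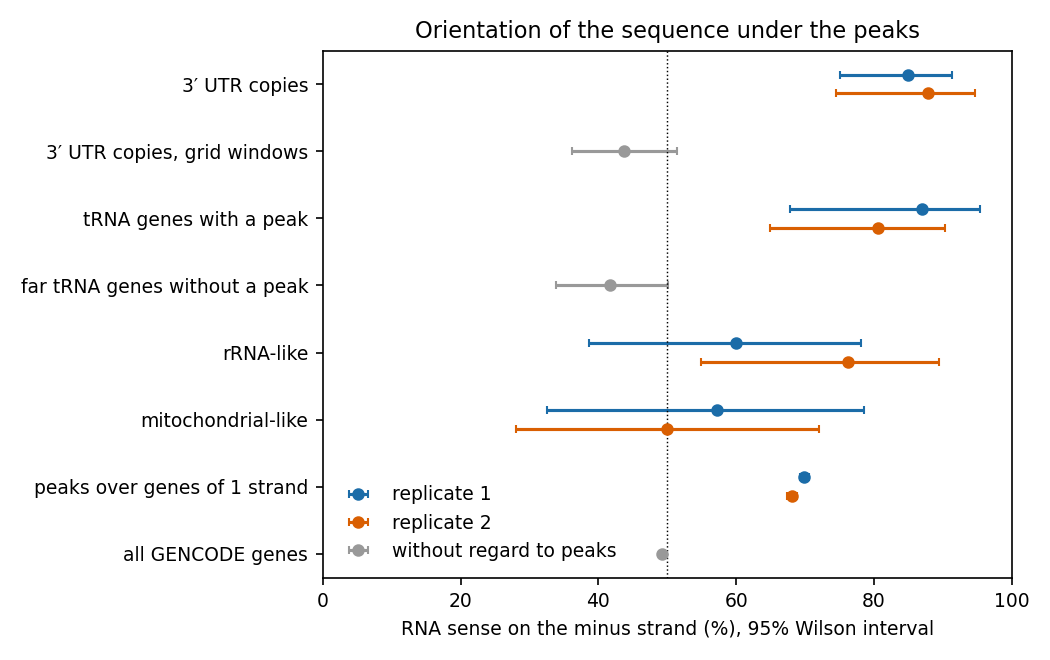
Percent of matched copies or genes whose RNA sense lies on the minus strand of the chromosome, with 95% Wilson intervals, blue for replicate 1, orange for replicate 2 and grey for sets taken without regard to peaks or without a peak. For mitochondrial matches, the strand is that of the alignment to the reference mitochondrial sequence. Copies of 3′ UTRs and tRNA genes under far peaks lie at 80.6% or above, and their grey counterparts at 43.7% and 41.7%.

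Peaks without a match made up the largest share of the list and the smaller part of its strongest peaks, with 5 and 4 of the 30 largest folds. Such a peak could still overlap a RefSeq gene other than a tRNA gene. Examples on chr19 were SNAR-A2, with folds of 6.71 and 10.7, and SNAR-C3, with 7.45 and 8.31. The replicate 2 peak over RNA28SP on chr2 was also in this group, while the overlapping replicate 1 peak matched rRNA. The chr4 site, at chr4:27730530-27730837 and 144385 bp from IGBP1P5, had fold 15.1 with 26 reads and 14.3 with 23 reads. On chr17, a peak at chr17:41678583-41679027 and 9857 bp from EIF1 had fold 17.2 with 54 reads in replicate 1 and fold 11.2 with 24 reads in replicate 2. The chr12 tandem repeat, 3982 bp from CCND2-AS1, had folds of 11.2 and 12.2 with 22 reads in both. The chr6 site, 49957 bp from COL12A1, had folds of 14.7 and 11.3. The cluster with the most peaks and no match was at chr17:41647413-41654175, with 3 peaks of replicate 1 and 2 of replicate 2, none of them above a fold of 4.88. The clusters at chr20:30486314-30489045 and chr22:11251207-11252774, also of 5 peaks, were rRNA copies.

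The sequence near the summits differed from that of gene peaks. GGAC, the core of the m6A motif, or its reverse complement lay within 50 nt of far summits in 35.9% (31.4 to 40.6) and 37.8% (32.9 to 43.0) of cases, a mean of 36.8% ± 1.34 (SD, n = 2). Gene peaks held it in 49.01% and 54.9%, and windows of that length laid end to end over the far space in 32.6%. TGGAC lay in 11.0% and 13.4% of far windows, against 17.3% and 17.4% of gene windows and 12.6% of the far space. Every window that holds TGGAC also holds GGAC. The interval of the GGAC share of far peaks included that of the far space in replicate 1 and lay just above it in replicate 2, and it lay below the share of gene peaks in both.

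CACA, found in binding sites of the IGF2BP family, lay in 64.6% and 59.1% of far windows, on either side of the 61.9% of the far space. AAAAA or its complement was scarcer, in 30.9% and 28.7% against 46.2%, and GGGG more frequent, in 37.3% and 43.2% against 29.5%. Both strands were searched for each motif. Median GC content was 46.5% and 49.5% in far peaks, 49.5% and 56.4% in gene peaks and 39.6% in the grid, and its part in the motif shares was not tested.

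The 31 bases at the summit occurred more than once in the genome in 28.9% (24.8 to 33.5) and 25.6% (21.3 to 30.4) of far peaks, a mean of 27.3% ± 2.39 (SD, n = 2). This was more than in gene peaks, at 8.54% and 7.56%, and above the 21.6% of the grid, which the interval of replicate 1 left out and that of replicate 2 included. The shares by group were 13 of 20 peaks and 57.1% for rRNA matches, 36.99% and 34.1% for 3′ UTR matches, and 18.02% and 14.04% for peaks without a match.

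The GENCODE set is 1 annotation among several. In the RefSeq gene table, 297 far peaks of replicate 1 (71.1%) and 227 of replicate 2 (64.5%) overlapped no gene, compared with 87.4% of the grid. RefSeq long non-coding RNA genes lay under 11.7% and 13.4% of far peaks and 9.84% of the grid, and RefSeq pseudogenes under 5.26% and 5.97% against 0.315%. Protein-coding genes of RefSeq lay under 3.83% and 3.69% against 2.09%. The other far peaks, 121 and 125, were intergenic in GENCODE 44 and not in RefSeq.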

How the data were processed

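The data are IGF2BP3 LACE-seq peak lists from 2 replicates of OE-19 cells, 1 list per replicate. Per the study's methods, reads that did not match pre-rRNA were mapped with Bowtie and peaks were called with Piranha. The submitters' processing notes name fastp, HISAT2, MACS2 and hg38, and the deposited files have the MACS2 layout. Versions are not given in the sources used here, and reads mapping to several places may have been placed differently by each aligner. The deposited columns are positions in bp, a score that repeats the q-value, a fold ratio over local background, and −log10 p-values and q-values (lowest −log10 q, 2.18 and 2.15). The authors' lists hold 21142 and 20799 peaks and no read totals, so the depth of the libraries is unknown. Peaks have no strand.

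The reads at each summit were recovered from the deposited fold and p-value under a Poisson distribution (tolerance 0.001), for every peak. Distances were taken to 62700 GENCODE 44 genes, and tRNA genes came from the RefSeq table, of the same assembly. Sequences were compared with blastn 2.17.0, at 90% identity over 100 nt with GENCODE transcripts, and at 80% over 60 nt with the mitochondrial genome and RNA45SN2. Matches were extended within 5000 bp. A tRNA strand was set by the GTTCGA or GTTCAA motif. Copies of the 31 bases at the summit were counted over 194 sequences of the primary assembly. Shares have 95% Wilson intervals and differences Newcombe intervals, with no p-value over peaks. Python 3.11.15, pandas 2.3.3, scipy 1.17.1 and pysam 0.24.0 were used. Distances, overlaps, recovered pileups, copy counts of 31 bases and Wilson intervals were tested on simulated data. The sequence matches, their extension and the strands were not.

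The members and lists were chosen with earlier results of these data known, and the sequence groups after their values were seen. Regions were named by rule: the 10 with the largest fold in both lists, the 5 farthest from genes among regions with peaks in both lists, the 3 on each side of the distance limit, the largest clusters, and genes matched at 3 or more regions. The other regions and genes named were chosen after their values were seen.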

Additional observations from a re-analysis of the deposited data

Results flagged for a closer look

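Outside chromosomes 1 to 22 and X, which the far intergenic peaks do not draw on, the lists held 72 peaks in replicate 1 and 66 peaks in replicate 2. They were set aside because they lie on sequences outside the rule for far peaks, and no control library was analysed here against which to set them.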

How the results depend on the processing

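Of 55 recomputed values for 10 results, 41 moved by less than the spread between replicates, or by less than 1.5 times for counts. The values with 1 replicate left out are among the 41 by construction. With 2 replicates, leaving 1 out always moves the mean by less than that spread. The number of far peaks over both lists, 770, was 385 beyond 10000 bp and 2295 when only protein-coding and lncRNA genes were counted. When overlap meant summits within 50 bp, the share overlapping the other replicate was 31.9% in place of 51.4%, and the gap to gene peaks 2.54 points in place of 9.49. The median summit pileup, in place of fold 6.87, was 11.5 reads. The share matching a transcript, 34.97%, was 16.5% at 95% identity, 27.3% for the 75 nt on each side of the summit, and, in alternatives chosen after seeing the data, 26.3% for at most 10 genes and 59.2% at 80% identity. The 3′ UTR share, 14.6%, was 6.08% at 95% identity. The multi-copy share, 27.3%, was 16.0% for 51-mers. GGAC, in 36.8%, was in 33.5% beyond 10000 bp, 73.0% of whole peaks and 38.6% of windows at the peak middle. The causes were not tested, beyond the longer or shorter sequence searched. With each replicate left out in turn, the overlap share ranged from 46.9 to 56.0%, the gap to gene peaks from 5.42 points without replicate 1 to 13.6 without replicate 2, the median fold from 6.81 to 6.92, the transcript share from 33.8 to 36.1%, the multi-copy share from 25.6 to 28.9%, GGAC from 35.9 to 37.8%, the tRNA, rRNA and mitochondrial share from 13.9 to 20.7%, and the 3′ UTR share from 11.6% without replicate 1 to 17.5% without replicate 2.

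No paired analysis was possible because the samples form a single group. The share of soft-masked summits and the condition on repeats in transcript matches were not run, since the genome used here is not soft-masked. With 1 group of 2 replicates and without a control library, enrichment over nonspecific RNA was not measured, and far peaks of few reads limit what overlap can show.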
